A study of Mus musculus with 6 samples.

Results

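The 30 genes described here are 21 selenoprotein genes and the genes that make, decode or supply selenocysteine in whole mouse brain. They were picked by symbol from the 55450 genes of the count tables, through the GENCODE M21 annotation of the assembly GRCm38. The study sequenced long RNA from the brains of wild-type animals (WT, 3 libraries) and of animals lacking TRMT1L, a protein related to the tRNA methyltransferase TRMT1 (KO, 3 libraries). The labels give the genotype and the tissue and describe the libraries as biological triplicates. Strain, allele, age and treatment are not given in the sources used here. The p-values set the difference between the genotypes against the spread of these 6 libraries within a genotype. Of the 30 genes, all 30 passed the filter on low counts, and Sephs2 is both a selenoprotein gene and a machinery gene, so it is counted in both groups (21 and 10 genes).

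Selenocysteine is the selenium analogue of cysteine and is inserted at an in-frame UGA codon, which otherwise ends translation. Its own tRNA is first charged with serine, phosphorylated by Pstk and converted to selenocysteyl-tRNA by Sepsecs with selenophosphate made by Sephs2. The elongation factor Eefsec carries this tRNA to ribosomes, and Secisbp2 binds the SECIS stem-loop in the 3′ end of selenoprotein mRNAs. In brain, selenium is delivered by selenoprotein P (Selenop) through its receptor Lrp8, and Gpx4 protects neurons from lipid peroxidation. Some selenoproteins, often called stress-related, are known to depend more on selenium supply and on the fully modified selenocysteine tRNA than others, called housekeeping. Here Gpx1, Gpx3, Msrb1, Selenow and Selenoh were taken as stress-related and Gpx4, Txnrd1 and Txnrd2 as housekeeping.

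The recoded codon itself is annotated in GENCODE for 21 of the 30 genes. The windows below hold up to 12 coding bases on each side of it, shown for the 8 stress-related and housekeeping genes and for Selenom and Dio2, on which results turn. They are written 5′ to 3′ as DNA on the gene's strand from the GENCODE M21 transcripts, and the capitals mark the TGA that is read as selenocysteine. Positions are those of the TGA on GRCm38.
Gpx1, TGA at chr9:108339451-108339453, plus strand: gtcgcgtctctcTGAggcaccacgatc
Gpx3, TGA at chr11:54907256-54907258, plus strand: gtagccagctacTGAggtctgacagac
Msrb1, TGA at chr17:24740158-24740160, plus strand: caatcaagattcTGAatatttagcagc
Selenow, TGA at chr7:15920464-15920466, minus strand: tattgtggagctTGAggctataagccc
Selenoh, TGA at chr2:84670381-84670383, minus strand: cattgtacgagcTGAcgcgtgtacggc
Gpx4, TGA at chr10:80054737-80054739, plus strand: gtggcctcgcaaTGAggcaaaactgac
Txnrd1, TGA at chr10:82896037-82896039, plus strand: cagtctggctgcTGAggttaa
Txnrd2, TGA at chr16:18477772-18477774, plus strand: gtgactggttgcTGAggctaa
Selenom, TGA at chr11:3516273-3516275, plus strand: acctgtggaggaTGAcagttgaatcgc
Dio2, TGA at chr12:90729823-90729825, minus strand: ggttcagccaccTGAccacctttcact

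The 2 thioredoxin reductase windows are shorter because the coding sequence ends 1 codon after the selenocysteine. In Selenow, Selenoh and Selenom a cysteine codon (TGT or TGC) stands 3 codons before the TGA, as it does in 5 of the 21 genes at the first selenocysteine codon. Cysteine codons make up 2.35% of all codons over 1 coding sequence from each of 20334 mouse genes. Selenop has 10 selenocysteine codons in a coding sequence of 380 codons, Dio2 has 2, and each of the other 19 genes has 1.

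**Figure D1:**
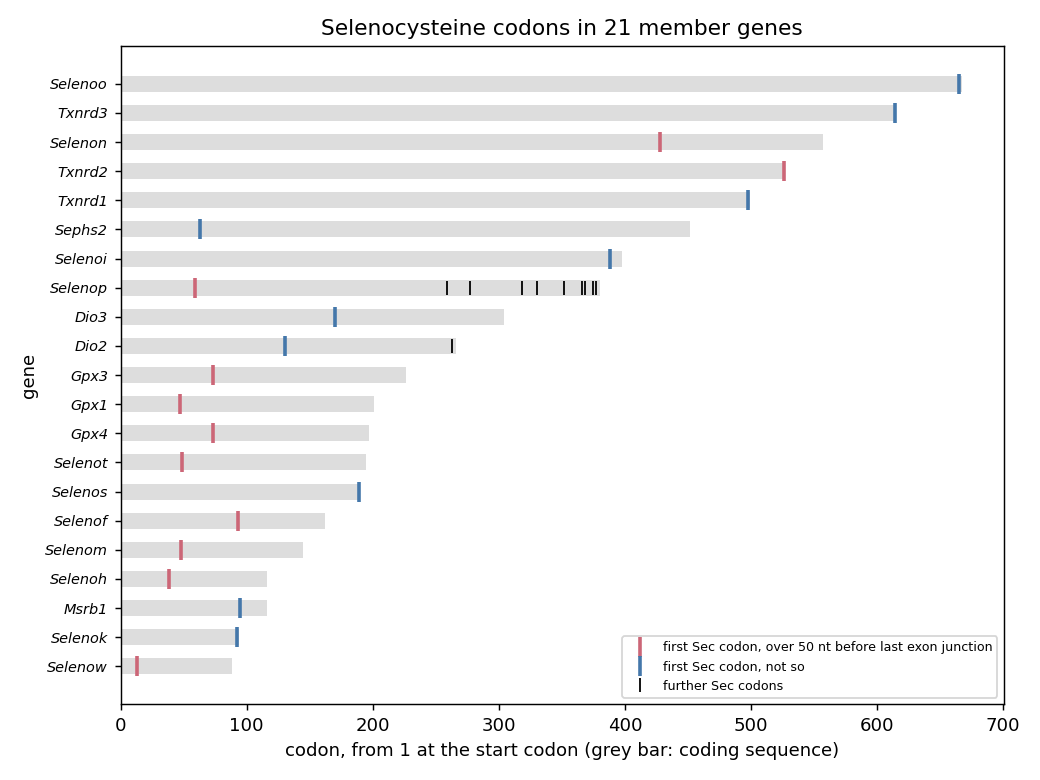
Position of each selenocysteine (Sec) codon (tick) along the coding sequence (grey bar, in codons) of the 21 selenoprotein genes among the members. The first codon is red where it lies over 50 nt before the last exon junction of the transcript (11 genes) and blue elsewhere (10 genes), and black ticks are the further codons of Selenop and Dio2.

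The libraries were first checked against their labels. Trmt1l was counted 1034 to 1279 times in a WT library and 93 to 106 times in a KO library. Counts in genes ranged from 31201119 to 36145961 per library. Markers of neurons summed to 4633 to 4840 CPM in WT and 4490 to 4739 CPM in KO, where CPM are counts scaled to the library total with TMM factors. Over the 8 lists of cell type markers, no marker was at 0 in any library. Choroid plexus markers, such as the transthyretin gene Ttr, had log2 fold changes above 0 for 8 of 8 genes (summed level 321 to 377 CPM in WT and 382 to 456 CPM in KO), and oligodendrocyte markers, such as the myelin gene Mbp, had log2 fold changes below 0 for 6 of 7 (2784 to 3035 CPM in WT and 2508 to 2978 CPM in KO, with overlapping groups). Blood markers, the globin genes and Alas2, had log2 fold changes above 0 for 5 of 5 with a median of 0.52, and their summed level was 109 to 149 CPM in WT and 98.3 to 247 CPM in KO. Meningeal markers were below 0 for 5 of 6 with a median of -0.11 (75.7 to 86.7 CPM in WT and 68.4 to 80.7 CPM in KO), and neuron markers for 6 of 8 with a median of -0.020. Microglia markers were below 0 for 4 of 8 (median -0.030) and endothelial markers for 3 of 7 (median 0.039). Astrocyte markers are given below. In the other lists, 3 choroid plexus markers and 1 blood marker were higher at an unadjusted p-value under 0.05 by edgeR, as 4.54% of all genes were. Lower were 2 meningeal markers and the microglia marker P2ry12 (-0.34), as 3.38% of all genes were, and 0 markers passed after adjustment. The share of mapped reads outside genes was 50.3% to 52.2% in WT and 48.6% to 49.8% in KO. The share mapped to several genes was 0.784% to 0.808% in WT and 0.863% to 0.909% in KO, and the share mapped to several places was 4.61% to 5.16% in WT and 5.25% to 5.60% in KO. None of these 3 shares overlapped between the genotypes. In whole tissue, fewer cells of a type and less RNA per cell cannot be told apart, and the part of these shifts in the values below was not tested.

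Levels were compared between genes as CPM per kb of annotated exon, averaged over the 6 libraries. Selenow, a small thioredoxin-fold selenoprotein, had the highest level at 245 CPM per kb, with libraries between 228 and 264. It was followed by Selenop at 68.3, the lipid hydroperoxidase Gpx4 at 56.5, the endoplasmic reticulum protein Selenot at 42.5 and Selenom, another protein of that compartment, at 30.5 CPM per kb. The ranges of the first 5 genes over the 6 libraries did not overlap. At the other end, Txnrd3 had 1.96, the mitochondrial thioredoxin reductase Txnrd2 1.59 and the thyroid hormone deiodinase Dio3 0.433 CPM per kb, and the range of levels was 565-fold. Of the 29 pairs of neighbours in this order, 18 had overlapping ranges, among them every pair from Lrp8 (11.9 CPM per kb) down to Secisbp2 (5.42 CPM per kb). Exon length here counts every annotated exon, so genes with long, rarely used exons appear lower.

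Among the machinery genes, Secisbp2l, a paralogue of the SECIS-binding protein gene Secisbp2, had 25.7 CPM per kb, against 5.42 for Secisbp2 itself. Of the remaining genes of synthesis and decoding, Sephs2 had 9.44, Eefsec 6.01, Sephs1 4.50, the selenocysteine tRNA-associated protein gene Trnau1ap 4.16, the selenocysteine lyase gene Scly 3.62, Sepsecs 3.31 and Pstk 3.04 CPM per kb. The level of Selenow was above that of every machinery gene in each library.

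**Figure D2:**
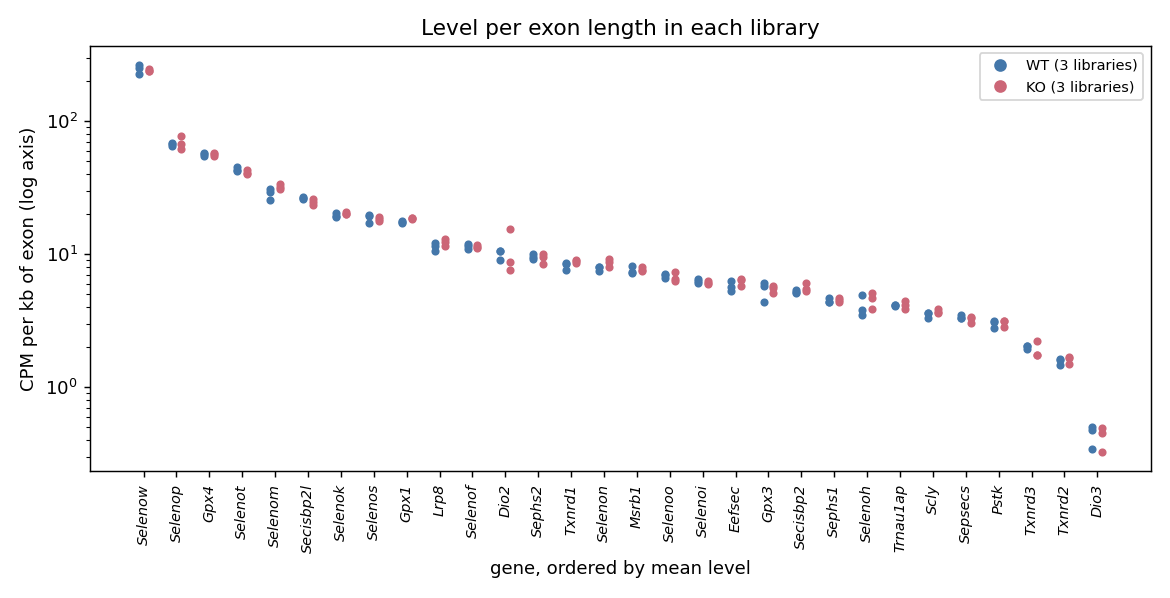
Level of the 30 genes as CPM per kb of exon on a log axis, with 1 point per library (WT blue, KO red), ordered by mean level from Selenow at 245 to Dio3 at 0.433. Points of both genotypes lie together for most genes, and Dio2 has 1 KO library well above the others.

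The comparison of KO with WT asked whether loss of TRMT1L is accompanied by altered mRNA levels of these genes. Of the 30 genes, 0 passed an adjusted p-value of 0.05 by the edgeR quasi-likelihood method, adjusted by Benjamini and Hochberg's procedure over 21237 genes, a threshold that 0.00942% of all genes passed. The smallest adjusted p-value among them was 0.622, for Selenom. Without adjustment, 1 of the 30 genes (3.33%) had a p-value under 0.05 and was higher in KO, against 4.54% of all genes, and 0 were lower, against 3.38%. DESeq2, with 8 of the 30 adjusted p-values not given, and limma-voom also called 0 of the 30 genes after adjustment. Each had 1 of the 30 without it, where 1160 (DESeq2) and 1632 (limma-voom) of 21237 genes had a p-value under 0.05 in either direction. The fitted log2 fold changes (KO over WT) ran from -0.097 to 0.16, with a median of 0.017 beside 0.00013 for all genes, and 20 of 30 were above 0 (66.7%, against 50.1% of all genes). With total counts in place of TMM, 16 of 30 were above 0.

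The size of change that these data allow was narrow for most of the genes. The 95% interval of the log2 fold change, from the edgeR fit, lay within 0.5 of 0 for 27 genes and within 0.25 of 0 for 21. The 3 genes with wider intervals were Selenoh (-0.18 to 0.50), Dio2 (-0.36 to 0.51) and Dio3 (-0.61 to 0.48). Dio3 had only 22 to 37 counts in a library and Selenoh 123 to 201, while Selenop had 6064 to 7419.

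**Figure D3:**
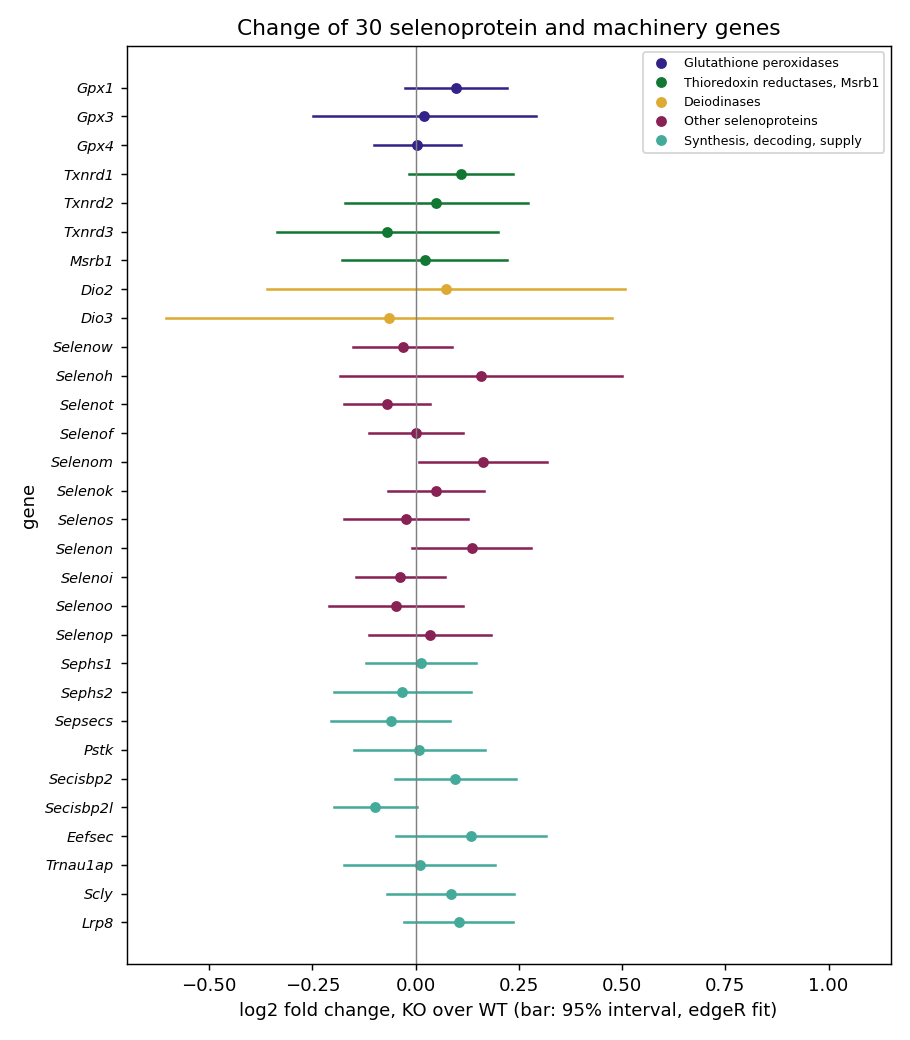
Log2 fold change of KO over WT for each of the 30 genes (point) with its 95% interval from the edgeR fit (bar), coloured by role. All points lie between -0.097 and 0.16, and the interval leaves 0 out for Selenom alone, before any adjustment.

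For 4 genes every KO library lay above every WT library (13.3%, against 7.46% of all genes), and for 1 gene every KO library lay below (3.33%, against 6.97%). The 4 were Selenom, Gpx1, Txnrd1 and Scly, and the 1 was Secisbp2l.

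Selenom had 45.9, 43.9 and 38.1 CPM in WT and 47.2, 46.0 and 49.9 CPM in KO, where values are given for replicates 1, 2 and 3 in turn here and for the genes that follow. WT libraries averaged 42.6 ± 4.04 and KO libraries 47.7 ± 2.00 CPM (SD, n = 3), and the gap between the highest WT and the lowest KO library was small beside the spread within WT. Its log2 fold change was 0.16 (SE 0.0705, adjusted p of 0.622 by edgeR), 0.077 after correction for GC content and 0.089 without WT library 3, the lowest. The unadjusted p-value of Selenom by edgeR was not under 0.05 with total counts, a filter of 50 counts on average, a replicate block, GC correction or protein-coding genes alone. Nor was it without WT library 2, WT library 3, KO library 1 or KO library 3. Selenom encodes a thioredoxin-like protein of the endoplasmic reticulum that is abundant in brain.

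Gpx1, the cytosolic glutathione peroxidase that removes hydrogen peroxide, had 25.5, 25.0 and 25.2 CPM in the WT libraries and 27.3, 26.4 and 27.3 CPM in the KO libraries. The groups were tight and did not overlap, and the log2 fold change was 0.097 (SE 0.0563, adjusted p of 0.697 by edgeR), or 0.026 after correction for GC content. Gpx3, the secreted family member, had 11.1, 7.88 and 10.5 CPM in WT and 10.5, 9.30 and 10.2 CPM in KO. Here the KO libraries lay inside the WT range, which WT library 2 widened at the low end, and the log2 fold change was 0.021 (SE 0.123, adjusted p of 0.982 by edgeR), or -0.11 without that library. Gpx4 had 100.2, 94.2 and 97.3 CPM in WT and 98.0, 94.0 and 100.6 CPM in KO. The KO range held the WT range, and its log2 fold change was 0.0043 with an interval from -0.10 to 0.11 (adjusted p of 0.988 by edgeR). It was -0.083 after correction for GC content, and its sign changed under 8 of 17 alternatives. A pseudogene, Gpx4-ps2, took 90 to 127 counts in a library against 2953 to 3646 for Gpx4. How many reads mapped to both was not measured.

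Txnrd1, the cytosolic thioredoxin reductase, had 59.9, 53.7 and 60.8 CPM in WT and 61.2, 64.0 and 63.2 CPM in KO. All KO libraries were above all WT libraries, with WT library 2 the lowest, and the log2 fold change was 0.11 (SE 0.0574, adjusted p of 0.659 by edgeR), or 0.057 without that library. Txnrd2 had 7.01, 7.15 and 6.50 CPM in WT and 7.28, 6.60 and 7.50 CPM in KO, which overlapped, and its log2 fold change was 0.050 (SE 0.101, adjusted p of 0.928 by edgeR). Txnrd3, which combines a glutaredoxin and a thioredoxin reductase domain and is best known from testis, had a log2 fold change of -0.069 with an interval from -0.34 to 0.20, and values of -0.19 without KO library 1, -0.014 without KO library 2 and -0.0096 without KO library 3. The methionine sulfoxide reductase Msrb1 had 9.26, 10.3 and 9.09 CPM in WT and 9.61, 9.39 and 10.1 CPM in KO. These groups overlapped as well, with a log2 fold change of 0.022 (SE 0.0914, adjusted p of 0.970 by edgeR).

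Selenow and Selenoh belong to the same family of small thioredoxin-fold proteins. Selenow had 184, 195 and 168 CPM in WT and 175, 177 and 183 CPM in KO, so that the KO libraries fell inside the WT range, and its log2 fold change was -0.031 with an interval from -0.15 to 0.088 (adjusted p of 0.912 by edgeR). After correction for GC content it was -0.11, and Selenow was then the 1 gene of the 30 with an unadjusted p-value under 0.05, with 0 past the adjusted threshold. In that edgeR fit 898 of 21237 genes had such an unadjusted p-value in either direction. Selenoh, a nucleolar DNA-binding member, had 4.34, 3.92 and 5.62 CPM in WT and 5.78, 4.37 and 5.34 CPM in KO. Both groups spread widely, and the log2 fold change was 0.16 (SE 0.156, adjusted p of 0.825 by edgeR). It was 0.10 after correction for GC content, 0.056 without WT library 2, 0.068 without KO library 1, 0.32 without WT library 3 and 0.26 without KO library 2.

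The stress-related genes had a median log2 fold change of 0.022 (5 genes, 4 above 0) and the housekeeping genes one of 0.050 (3 genes, 3 above 0), a difference of -0.028 between the medians. Taken within each library, the stress-related median minus the housekeeping median of the log2 deviations from the gene means was -0.037, -0.014 and -0.049 in WT and 0.044, 0.015 and -0.0031 in KO. Every KO library was above every WT library on this measure, and the group means differed by 0.052 with an SD of 0.0212 within a genotype, opposite in sign to the difference between the medians of the fold changes. The direction thus depends on how the genes are summarised, and both values are descriptions. Of the 5 stress-related and 3 housekeeping genes, 1 each had KO libraries all above WT, Gpx1 and Txnrd1, where 7.46% of all genes had. The order of the medians depended on the choice of libraries, counts and list: without WT library 1 the difference was 0.041, without WT library 3 it was 0.062, with reads counted without regard to strand it was 0.025, and with Selenof, Selenop and Selenot counted as housekeeping it was 0.0021. After correction for GC content both medians were below 0, at -0.031 and -0.0068.

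**Figure D4:**
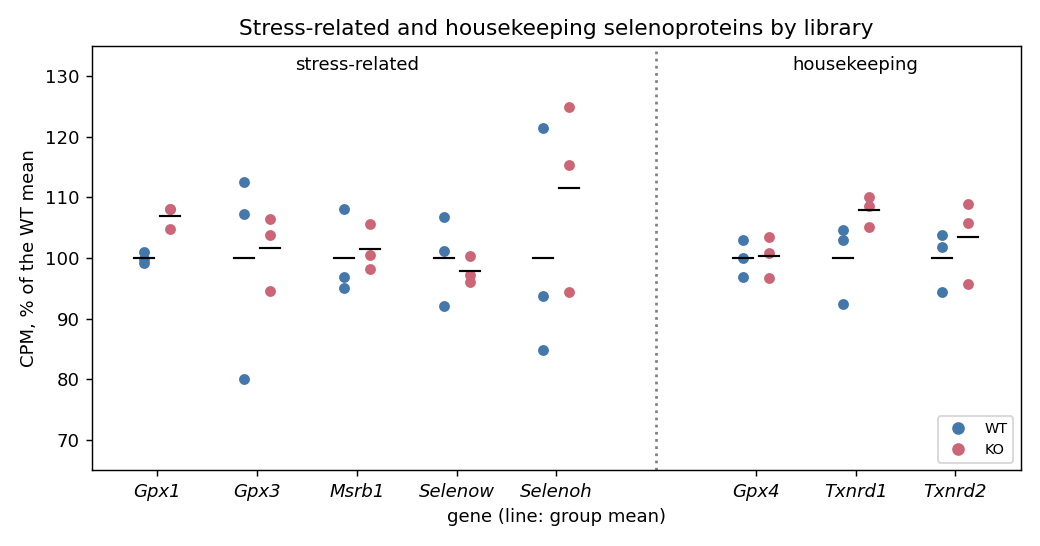
CPM of the 5 stress-related and 3 housekeeping selenoprotein genes in each library, as a percent of the WT mean of the gene (WT blue, KO red, line: group mean). Gpx1 and Txnrd1 have no overlap between the groups, and Gpx3 and Selenoh have the widest spread within WT.

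In a list of 7 selenoproteins of the endoplasmic reticulum, which left out Dio2, 4 of 7 had a log2 fold change above 0, with a median of 0.00016. Besides Selenom these were Selenon (0.14, interval -0.0078 to 0.28, and 0.062 after correction for GC content), which is linked to calcium handling and to congenital muscle disease, Selenok (0.049) and Selenof (0.00016), a partner of the glucosyltransferase that checks glycoprotein folding. Selenot (-0.069), Selenoi (-0.037), an enzyme of phosphatidylethanolamine synthesis, and Selenos (-0.023), a part of the machinery that removes misfolded proteins, were on the other side of 0. None of these 6 passed the test (adjusted p of 0.637 or more by edgeR). Selenok has 6 annotated pseudogenes, of which Selenok-ps1 took 27 to 39 counts in a library against 1134 to 1397 for Selenok. The mitochondrial protein Selenoo had a log2 fold change of -0.048 with an interval from -0.21 to 0.11. Its exons share 26.7% of their bases with Tubgcp6 on the opposite strand, where 472 to 637 reads were counted over Selenoo per library against 789 to 1003 for Selenoo itself.

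The genes of selenium supply were Selenop, its receptor Lrp8 and Scly, which frees selenium from selenocysteine. Selenop had 196, 193 and 187 CPM in WT and 192, 220 and 178 CPM in KO, with KO library 2 the highest and KO library 3 the lowest of all 6. Its log2 fold change was 0.035 (SE 0.0675, adjusted p of 0.923 by edgeR), and -0.055 without KO library 2. Lrp8 had a log2 fold change of 0.10 with an interval from -0.027 to 0.24, which was 0.053 after correction for GC content, 0.056 without WT library 2 and 0.057 without KO library 2. Scly had 16.4, 16.5 and 15.2 CPM in WT and 16.6, 17.5 and 16.8 CPM in KO, with the nearest libraries of the groups close together, and a log2 fold change of 0.085 (SE 0.0703, adjusted p of 0.793 by edgeR). That of Scly was 0.031 after correction for GC content and 0.049 without WT library 3.

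Secisbp2l had 216, 217 and 223 CPM in WT and 214, 193 and 205 CPM in KO. It was lower in every KO library than in any WT library, with KO library 2 the lowest, and its log2 fold change was -0.097 (SE 0.0463, adjusted p of 0.630 by edgeR). Its interval, from -0.20 to 0.0039, reached just past 0, and its SE was the smallest of the 30 genes. The log2 fold change was -0.064 after correction for GC content and -0.060 without KO library 2. Secisbp2l is known to be prominent in oligodendrocytes, and the oligodendrocyte markers given above had log2 fold changes below 0 for 6 of 7 genes; their part in this result was not tested. The paralogue Secisbp2 had a log2 fold change of 0.096 with an interval from -0.051 to 0.24, and 0.038 without KO library 2.

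The enzymes and factors that make and use selenocysteyl-tRNA had log2 fold changes from -0.061 for Sepsecs to 0.13 for Eefsec, and after correction for GC content these were -0.015 and 0.060. Between them lay Sephs2 (-0.032), Pstk (0.0088), Trnau1ap (0.0096) and Sephs1 (0.013), a paralogue of Sephs2 with no selenocysteine codon. The 10 machinery genes, Sephs2 and the supply genes Scly and Lrp8 included, had a median log2 fold change of 0.012, and 7 of them were above 0. Exons of Pstk share 58.8% of their bases with Ikzf5 on the opposite strand, where 872 to 968 reads were counted over Pstk per library against 732 to 896 for Pstk. Counted without regard to strand its log2 fold change was -0.052. Sephs2 shares 36.4% of its exon bases with Gm44729 on the opposite strand. There only 0 to 4 reads were counted over Sephs2 per library, against 621 to 786 for Sephs2. Counted without regard to strand its log2 fold change was -0.10, and the cause of this move was not tested.

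Deiodinases activate (Dio2) or inactivate (Dio3) thyroid hormone, and Dio2 in brain is made by astrocytes and tanycytes. Dio2 had 61.2, 52.8 and 61.8 CPM in WT and 44.2, 89.8 and 51.2 CPM in KO. KO library 2 was above all WT libraries and KO libraries 1 and 3 were below all of them, so the KO group had an SD of 24.5 CPM against 5.05 CPM in WT. The log2 fold change was 0.073 (SE 0.198, adjusted p of 0.948 by edgeR), and -0.30 without KO library 2 (adjusted p of 0.646 by edgeR). Dio3 had 1.02, 0.702 and 0.972 CPM in WT and 0.662, 1.01 and 0.913 CPM in KO, which overlapped in part, with KO library 1 the lowest and WT library 1 the highest. Its log2 fold change was -0.065, and -0.15 after correction for GC content. In 8 genes of thyroid hormone transport and response, 0 passed the edgeR test after adjustment, and 1, the receptor gene Thra, had a p-value under 0.05 without it and was higher, as 4.54% of all genes were (log2 fold change 0.096, SE 0.0424, adjusted p of 0.622 by edgeR). Astrocyte markers had a median log2 fold change of -0.0061, with 4 of 8 above 0, and lay on both sides of 0: without adjustment 2 were higher at a p-value under 0.05, Aldh1l1 (0.18) and Gfap (0.45, with 248 CPM in KO library 3), and 1 was lower, the water channel gene Aqp4 (-0.17), while 0 passed after adjustment (4.54% of all genes were higher and 3.38% lower without it). Their part in the values of Dio2 was not tested.

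**Figure D5:**
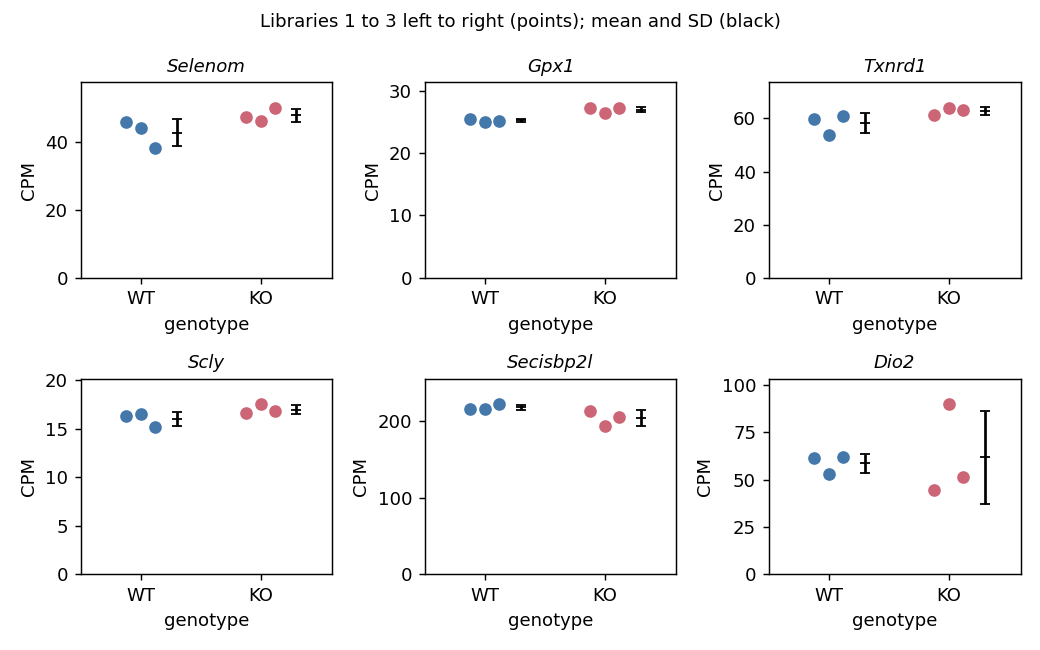
CPM in each library (points, libraries 1 to 3 from left to right) with mean and SD (black) for the 5 genes whose groups did not overlap and for Dio2. The differences of the first 5 are small beside their levels, and Dio2 spans 44.2 to 89.8 CPM within KO.

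KO library 2 gave the highest value of the 6 libraries for 10 of the 30 genes and the lowest for 8. The other libraries gave the highest value for 3 to 6 genes and the lowest for 2 to 8. Leaving out 1 library raised the median log2 fold change of the machinery genes from 0.012 to between 0.020 (without WT library 1) and 0.039 (without KO library 3). That of the housekeeping genes went from 0.050 to between 0.012 (without WT library 3 or KO library 3) and 0.096 (without KO library 2). The median of the stress-related genes moved over a wider range, which is given with the alternatives below.

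A property that the choice of genes did not use is the position of the selenocysteine codon relative to exon junctions, since a UGA read as a stop well before the last junction can direct an mRNA to nonsense-mediated decay. The first selenocysteine codon lay more than 50 nt before the last junction in 11 of the 21 genes, among them Gpx1, at 105 nt, Gpx4, at 342 nt, Selenow, at 243 nt, and Selenot, at 470 nt. In these 11 genes the median log2 fold change was 0.035 and 9 were above 0, and in the other 10 the median was -0.027 and 4 were above 0. Neither Txnrd1 nor Txnrd3 was among the 11, while Txnrd2 was, at 83 nt. The coding sequence of Txnrd2 ends 1 codon after the selenocysteine, so its ordinary stop codon also lies more than 50 nt before that junction. After correction for GC content 7 of the 11 genes and 4 of the 10 were above 0. With DESeq2 size factors 8 of the 11 were above 0, and with total counts 7, with 4 of the 10 in both. Of all genes, 50.1% were above 0 in the reported fit. The base after the first TGA was G in 11 genes, C in 5, A in 3 and T in 2, and the medians were 0.021, 0.073, 0.00016 and -0.0060. These counts and medians are descriptions, with no test.

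Genes that act beside the 30 were read from lists set by their function. Of 14 further genes of selenoprotein decoding, tRNA modification, mRNA surveillance and uptake, 0 passed the edgeR test after adjustment, 2 were higher in KO without adjustment and 0 lower, where 4.54% of all genes were higher and 3.38% lower, the shares that the counts of the other lists below also stand beside. The 2 were the decay helicase gene Upf1 (log2 fold change 0.18, SE 0.0568, adjusted p of 0.576 by edgeR) and the endocytic receptor gene Lrp1 (0.095, SE 0.0379, adjusted p of 0.606 by edgeR). In both, every KO library lay above every WT library, as in 7.46% of all genes. Trit1 and Alkbh8, which modify selenocysteine tRNA, had log2 fold changes of -0.017 and -0.014. Among 17 partners in the thioredoxin and glutathione systems, 0 passed after adjustment, 2 were higher without it, the thioredoxin inhibitor gene Txnip (0.35, SE 0.139) and the peroxiredoxin gene Prdx2 (0.10, SE 0.0431), and 1 was lower, the glutathione synthesis gene Gclm (-0.15, SE 0.0533; adjusted p between 0.579 and 0.618 by edgeR for the 3). Of 7 homologues that use cysteine in place of selenocysteine, 6 were tested and 0 had a p-value under 0.05 with or without adjustment. Of the selenoprotein genes outside the 30, Selenov was tested (-0.051, SE 0.234), and Gpx2 and Dio1 were below the filter on low counts.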

How the data were processed

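The data are long RNA libraries of whole mouse brain, 3 WT and 3 KO. Per the labels' protocols, RNA over 200 bp was taken into Illumina TruSeq total RNA libraries. The submitters' processing notes name cutadapt 1.9.1 and STAR 2.7.0f, without their settings. The authors deposited whole-number read counts per gene in the layout of STAR; genome build and annotation are not given in the sources used here, but the 55450 gene identifiers equal those of GENCODE M21. The fourth column, which held 94.6% to 94.8% of stranded counts, was used. Rows for unmapped, multiply mapped, unassigned and ambiguous reads were left out; reads in no gene made up 50.3% to 52.2% of mapped reads in WT and 48.6% to 49.8% in KO.

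Counts were analysed in R 4.3.3 with edgeR 4.0.16 (filterByExpr, TMM, quasi-likelihood test of genotype over 21237 genes, Benjamini-Hochberg adjustment). The SE is the log2 fold change over the square root of F, and intervals use the fit's degrees of freedom. With 3 against 3 libraries no exact permutation test can go below p = 0.1, so none was run. On simulated counts with known changes, the intervals covered the true change about as often as stated, most small changes were missed after adjustment, and the calls held more false ones than the threshold names, mainly where the changes were small. Alternatives were unstranded counts, DESeq2 1.42.0 size factors or total counts, leaving the filter out or keeping genes with 50 counts or more on average, DESeq2's Wald test, limma-voom (limma 3.58.1), a replicate block, GC correction (lowess of each library's log2 CPM on transcript GC content), protein-coding genes alone, each library left out and a wider housekeeping list. The 30 genes and all lists were chosen with earlier results of these data known. Of the oligodendrocyte markers listed at the outset, 1 is not reported here and was left out of the list. Stress-related and housekeeping genes, those with an unadjusted p-value under 0.05 and those without overlap are given in every library; other values in every library, and the split by exon junctions, were chosen after seeing the data. Replicates of a group differed by a chi-square per degree of freedom of 4.08 to 8.69, so none was merged.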

Additional observations from a re-analysis of the deposited data

How the results depend on the processing

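Over 17 alternatives for the 30 genes (16 for Dio3, which the stricter filter removed), 0 genes passed an adjusted p-value of 0.05 under each alternative, and the log2 fold changes lay between -0.30 and 0.32. The same side of 0 was kept by 13 genes under every alternative they were tested in. For the sign changes given here the cause was not tested. The unstranded counts gave -0.052 for Pstk. DESeq2 size factors gave -0.00031 and the DESeq2 Wald test -0.00016 for Selenof. Total counts gave -0.0056 for Gpx4, -0.0097 for Selenof, -0.0018 for Pstk and -0.00012 for Trnau1ap. A mean count of at least 50 gave -0.00084 for Gpx4 and -0.0050 for Selenof. Protein-coding genes alone gave -0.0067 for Gpx4, -0.011 for Selenof, -0.0022 for Pstk and -0.0014 for Trnau1ap.

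The 30 genes had a median GC content of 53.4%, against 48.9% for all genes tested. GC correction gave -0.037 for Gpx3, -0.083 for Gpx4, 0.010 for Selenoi, 0.0051 for Selenot, -0.031 for Msrb1, -0.0068 for Txnrd2 and -0.039 for Trnau1ap. Without a change of sign it moved Dio2 to 0.12, Dio3 to -0.15, Selenof to 0.049, Selenok to 0.075, Selenoo to -0.12, Selenop to 0.076, Selenow to -0.11, Sephs1 to 0.035, Sephs2 to -0.059 and Pstk to 0.049. Unstranded counts moved Gpx3 to 0.037, Selenoo to -0.027, Selenop to 0.060, Txnrd2 to 0.013 and Sephs2 to -0.10, and Dio2 was 0.0033 with limma-voom and 0.0098 with the replicate block. GC correction moved the stress-related median to -0.031 and the housekeeping median to -0.0068. The replicate block with GC correction gave -0.026, -0.082, 0.011, 0.0053, -0.031, -0.0073 and -0.040 for the 7 genes from Gpx3 to Trnau1ap above, in that order, and medians of -0.026 and -0.0073. The wider housekeeping list had a median of 0.020 and a difference of 0.0021 between the stress-related and housekeeping medians, and the unstranded counts gave a difference of 0.025.

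Genes higher in KO at an unadjusted p-value under 0.05 numbered 3 with no filter (Selenom, Selenon and Lrp8), where 2506 of 37245 genes had such a p-value in either direction and 298 passed the adjusted threshold, against 1682 of 21237 and 2 in the reported fit, and 0 with scaling by total counts, the stricter filter (50 counts on average), the replicate block, GC correction, both of these together, or protein-coding genes alone. Genes lower numbered 1 with total-count scaling, the stricter filter and protein-coding genes alone (Secisbp2l in each) and 1 with GC correction (Selenow). Among all genes, such a p-value in either direction was found for 1683 of 21237, 1451 of 16187, 1270 of 15218 and 898 of 21237 in these 4 fits, in that order. It was found for 1454 of 21237 with the replicate block and 790 of 21237 with the block and GC correction together. Deviations of same-numbered WT and KO libraries correlated at 0.040, -0.031 and -0.058 across genes. With no reference beside them, these values cannot decide whether the replicate numbers pair libraries. The replicate block left 0 of the 30 genes past the adjusted threshold.

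With each library left out in turn, from 0 to 2 of the 30 genes were higher and from 0 to 1 lower at a p-value under 0.05 by edgeR without adjustment. Among all genes, such a p-value in either direction was found for 1193 of 21674 (without WT library 2) to 1856 of 21639 (without KO library 1). The medians ranged from 0.020 to 0.039 (machinery), 0.0054 to 0.11 (stress-related) and 0.012 to 0.096 (housekeeping), and the difference between the last 2 from -0.027 to 0.062. Sign changes occurred for Gpx3 (-0.11 to 0.12), Gpx4 (-0.018 to 0.030), Selenof (-0.034 to 0.029), Selenoo (-0.12 to 0.00050), Selenop (-0.055 to 0.10), Selenos (-0.082 to 0.021), Selenow (-0.086 to 0.019), Msrb1 (-0.012 to 0.081), Dio2 (-0.30 to 0.26), Dio3 (-0.21 to 0.091), Sephs1 (-0.016 to 0.043), Sephs2 (-0.084 to 0.032), Pstk (-0.041 to 0.062) and Trnau1ap (-0.040 to 0.054). The other 16 genes kept their sign: Gpx1 (0.089 to 0.11), Selenoh (0.056 to 0.32), Selenoi (-0.064 to -0.0066), Selenok (0.033 to 0.076), Selenom (0.089 to 0.22), Selenon (0.089 to 0.18), Selenot (-0.10 to -0.036), Txnrd1 (0.057 to 0.14), Txnrd2 (0.012 to 0.10), Txnrd3 (-0.19 to -0.0096), Sepsecs (-0.090 to -0.014), Secisbp2 (0.038 to 0.13), Secisbp2l (-0.13 to -0.060), Eefsec (0.080 to 0.20), Scly (0.049 to 0.11) and Lrp8 (0.056 to 0.15).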

Other observations

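Dio2 was singled out after its values were seen. Among 10646 genes with a mean of at least 10 CPM, 32 (0.301%) had a coefficient of variation over the KO libraries as high as that of Dio2, 39.7%, where the median gene had 4.76%. KO library 2 held 2.03 times as much Dio2 RNA as KO library 1 and 1.45 times as much as the highest WT library. Klf9, a transcription factor gene induced by thyroid hormone and by glucocorticoids, also had its highest value in KO library 2, with 168, 165 and 164 CPM in WT and 174, 219 and 151 CPM in KO. Hr, another thyroid hormone target, had 68.5, 60.9 and 53.1 CPM in WT and 59.5, 70.0 and 68.5 CPM in KO, where KO library 2 did not stand apart. Both genes were named after their values were seen.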
